A study of Rattus norvegicus with 24 samples.

Results

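The branched-chain amino acid breakdown enzymes measured here were 7 genes: Bcat2, Bckdha, Bckdhb, Acadsb, Ivd, Auh and Pcca. Every probe set that the platform annotation assigns to 1 of these symbols was taken, which gave 10 of 8740 probe sets (array controls left out) and 7 of 4736 named genes. Bckdha had 2 probe sets, Ivd had 3 and the other genes had 1 each. RNA came from the ventricles of 24 male Wistar rats, 1 Affymetrix RG-U34A array per animal, with 6 groups of 4. The diabetic groups received streptozotocin at 65 mg per kg, which kills pancreatic beta cells and so depletes insulin, when the rats weighed 150 g, and the control groups received citrate buffer. Diabetic and control ventricles were taken 3, 28 or 42 days after the injection. By the labels, these days stand for no cardiac symptoms, for diastolic symptoms, and for diastolic with systolic symptoms. No transgene or second agent was used, and the animals' age is given only as days since the injection. As a model, streptozotocin depletes insulin without the autoimmune attack of human type 1 diabetes. Body weight diverged as well. It was 144 to 157 g in diabetic and 156 to 181 g in control rats at day 3. At day 28 it was 205 to 265 g and 295 to 351 g. At day 42 it was 112 to 126 g in diabetic and 413 to 472 g in control rats. Those diabetic rats weighed less than at injection. Diabetic ventricles weighed 0.50 to 0.65 g at day 28 and 0.35 to 0.40 g at day 42. Control ventricles weighed 0.71 to 0.90 g and 0.90 to 1.17 g. The part of weight loss in the differences was not tested.

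Leucine, isoleucine and valine are broken down in mitochondria, in muscle and heart more than in liver at the first step. Bcat2, the mitochondrial branched-chain aminotransferase, moves the amino group to 2-oxoglutarate, and the branched-chain ketoacid dehydrogenase, whose E1 part is built from the products of Bckdha and Bckdhb, then commits the carbon to oxidation. From there each amino acid has its own acyl-CoA dehydrogenase and later steps: Ivd acts on isovaleryl-CoA from leucine, Auh hydrates 3-methylglutaconyl-CoA further down the leucine route, Acadsb acts on 2-methylbutyryl-CoA from isoleucine, and Pcca is the biotin-carrying alpha subunit of propionyl-CoA carboxylase, which takes up the propionyl-CoA left by isoleucine and valine.

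The promoters of Pcca and Ivd are shown because these are the only 2 of the 7 genes that were lower in diabetic ventricles past the threshold at more than 1 day. Each sequence is RefSeq's for the rat assembly GRCr8, plus strand, and runs from 250 bases before to 50 bases after the start given in the promoter table, which for Pcca lies downstream of the outermost start annotated for the gene. Capitals mark CCAAT or its reverse complement ATTGG, the CCAAT box.
Pcca, chr15:106034368-106034667: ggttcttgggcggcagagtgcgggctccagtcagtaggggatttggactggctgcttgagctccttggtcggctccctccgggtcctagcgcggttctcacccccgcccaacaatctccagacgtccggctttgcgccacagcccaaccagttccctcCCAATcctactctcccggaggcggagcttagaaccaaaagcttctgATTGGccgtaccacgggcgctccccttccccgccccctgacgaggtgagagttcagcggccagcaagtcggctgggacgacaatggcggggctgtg
Ivd, chr3:126305334-126305633: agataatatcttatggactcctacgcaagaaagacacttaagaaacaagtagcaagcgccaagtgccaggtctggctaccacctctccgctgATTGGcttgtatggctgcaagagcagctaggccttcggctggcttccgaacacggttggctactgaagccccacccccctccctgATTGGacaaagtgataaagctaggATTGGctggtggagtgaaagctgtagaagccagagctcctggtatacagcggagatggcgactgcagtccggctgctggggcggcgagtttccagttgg
The Pcca window holds 2 CCAAT boxes and the Ivd window holds 3. Promoters of 6 members were in the table: those of Bckdhb, Bcat2, Acadsb and Auh besides these, with 2 CCAAT boxes for Bckdhb and none in the windows of the other 3. Among all 33469 promoters of 300 bases, 37.5% hold at least 1 CCAAT box on either strand. The GC box, GGGCGG on either strand, occurs in 6 of the 6 member promoters and in 33.1% of all promoters. The CACCC box of the Krüppel-like factors, again on either strand, occurs in 5 of the 6 and in 54.9% of all. Neither AGGTCA, the nuclear receptor half-site, nor CCGGAAG, an ETS core, was found in the 6 windows, against 16.2% and 8.75% of all promoters. None of these motifs contains another. They were chosen with the sequences in view and describe the letters only.

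The question was when after the injection these enzymes first differed between diabetic and control ventricles. At day 3 only Pcca was lower past the threshold, at day 28 Pcca and Ivd were, and at day 42 all 7 genes were. With median centring of each array, which left these day 42 differences as they were, Bcat2, Bckdha, Bckdhb and Auh no longer passed at day 42 (adjusted p = 0.062, 0.073, 0.097 and 0.10), and Ivd, Acadsb and Pcca did. Median centring also ended the Pcca calls of days 3 and 28 (adjusted p = 0.29 and 0.32). Of the Ivd calls at day 28 it ended that of the brightest probe set (0.09) and kept the other (0.04). The day 3 call of Pcca remained in 1 of the 8 fits that left out 1 array. Of the 10 probe sets, 1 was called lower at day 3, 3 at day 28 and 9 at day 42, and none was called higher at any day. Called means an adjusted p under 0.05 in limma over the 5244 probe sets kept by a filter on low signals, and all 10 member probe sets passed that filter. Among all 5244 probe sets, 0.305%, 0.801% and 5.63% were called lower at days 3, 28 and 42. In either direction, 49, 110 and 599 of them were called. The diabetic minus control difference was below 0 in 8, 10 and 10 of the 10 members, with a median of -0.39, -0.50 and -0.75 on the log2 scale. Over all probe sets tested the median difference was -0.04, -0.06 and -0.03, and 55.6%, 59.7% and 53.3% of the differences were below 0. All 4 diabetic arrays lay below all 4 control arrays in 3 members at day 3, 4 at day 28 and 9 at day 42, against 4.14%, 3.78% and 10.8% of all probe sets. RNA from ventricle tissue does not separate fewer cells of a type from less RNA per cell.

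**Figure D1:**
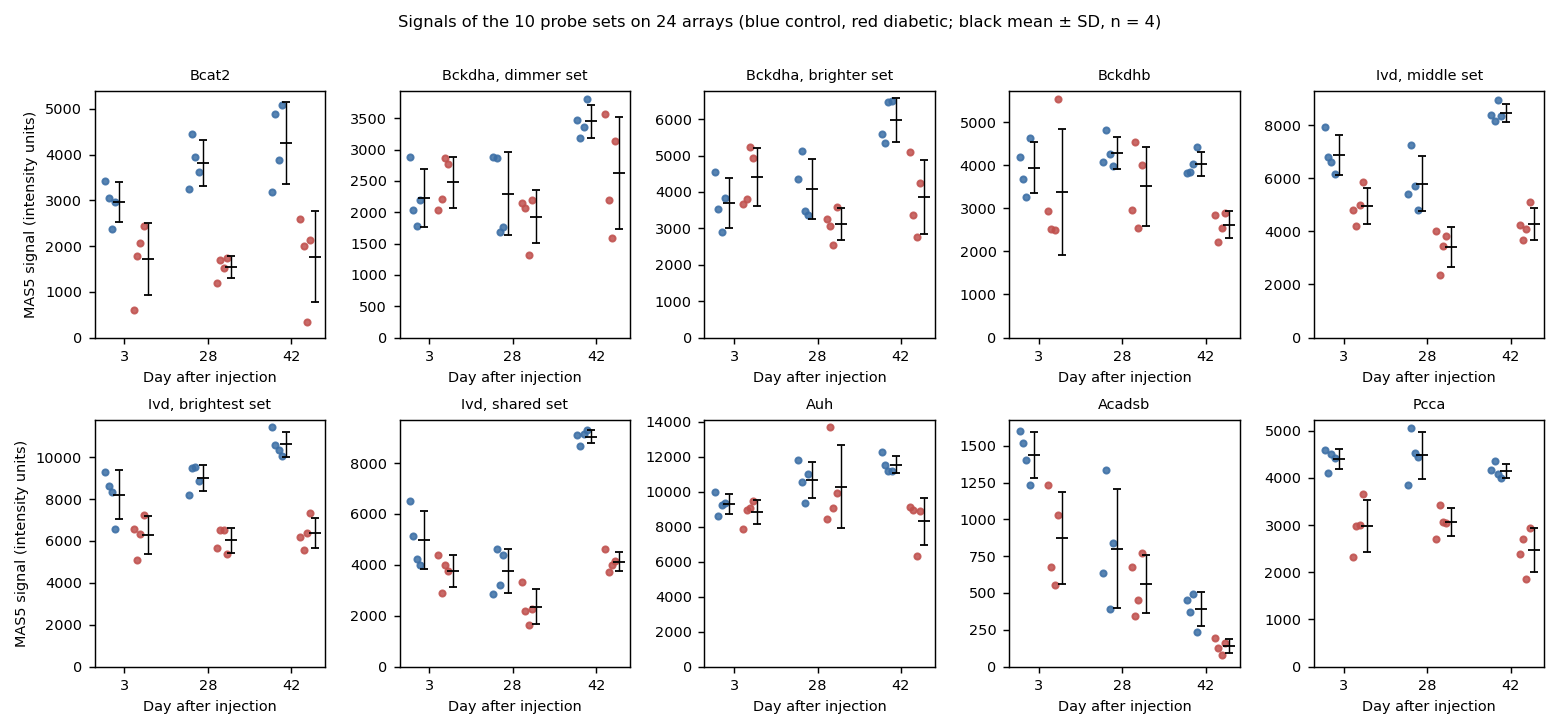
MAS5 signal in intensity units (y axis, from 0) by day after injection (x axis) for the 10 probe sets. Blue points are the 4 control arrays and red points the 4 diabetic arrays of a day, and black bars give the mean ± SD; at day 42 the groups do not overlap in 9 of the 10 panels, all but the dimmer Bckdha set.

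**Figure D2:**
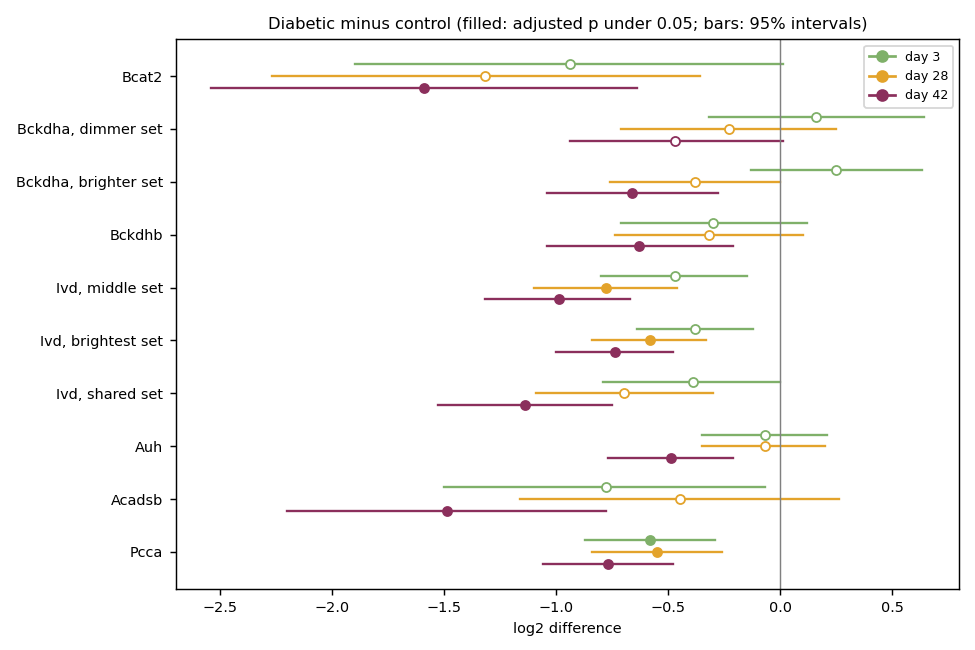
Diabetic minus control difference on the log2 scale (x axis) for the 10 probe sets (y axis) at days 3, 28 and 42, with 95% confidence intervals. Filled points passed an adjusted p of 0.05, which was 1, 3 and 9 of the 10 at the 3 days.

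Bcat2, the entry enzyme, was lower at day 42. Its signal was 3171, 4876.5, 3883 and 5081 intensity units in the 4 controls and 2596, 2002, 334 and 2139.5 in the 4 diabetic ventricles. The groups did not overlap, and diabetic replicate 3 stood far under the other 3. The difference was -1.59 ± 0.46 (log2, SE), a 3.01-fold lower level, with an adjusted p of 0.025. Without diabetic replicate 3 it was -0.90 (adjusted p = 0.058), smaller than the -1.25 of Acadsb in that fit, and Bcat2 remained called in 5 of the 8 fits that left out 1 array of that day. The call also ended in a fit of the day 42 arrays alone (adjusted p = 0.077) and with median centring of each array (adjusted p = 0.062), both at -1.59.

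At day 28 the Bcat2 signal was 3250.2, 4438, 3955 and 3611 in controls and 1202, 1689, 1520.2 and 1730.5 in diabetic ventricles. These groups also lay fully apart, yet the fit across all arrays gave -1.32 ± 0.46 with an adjusted p of 0.17, while a fit of the day 28 arrays alone gave an adjusted p of 0.0044. At day 3 it was 3424, 3058, 2377 and 2971 against 601, 1783, 2073 and 2428.5, where diabetic replicate 1 was the low one and the highest diabetic array lay just above the lowest control. The day 3 difference of -0.94 had a 95% interval of -1.90 to 0.01 (adjusted p = 0.50). Leaving out diabetic replicate 1 of day 3 and diabetic replicate 3 of day 42 together, the 2 arrays farthest from their group means over all probe sets, gave -0.50 (adjusted p = 0.18), -1.32 (4.8e-05) and -0.90 (0.0012) at the 3 days, so the day 28 difference then passed.

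The 2 genes of the ketoacid dehydrogenase E1 part differed from the controls past the threshold at day 42 and at no earlier day. For Bckdha, the brighter probe set read 5584, 5347.5, 6465 and 6499 in controls and 5089.7, 3364, 2755 and 4238 in diabetic ventricles at day 42. No diabetic array reached the lowest control. The difference was -0.66 ± 0.18 (adjusted p = 0.017), and it remained called in 4 of the 8 fits without 1 array and not with median centring. The dimmer Bckdha set, drawn from the same source sequence and therefore not independent, read 3471, 3186, 3356 and 3809 against 3562, 2196, 1589 and 3134. Here diabetic replicate 1 lay among the controls, and the difference of -0.47 had an interval of -0.94 to 0.01 (adjusted p = 0.23).

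Bckdha was the member whose day 3 difference had the opposite sign. Its brighter set read 4541, 3534, 2894 and 3827 in controls and 3659, 3804, 5231.5 and 4939.7 in diabetic ventricles, and the groups overlapped. The difference there was 0.25 ± 0.18 (adjusted p = 0.76), and the dimmer set gave 0.16 (adjusted p = 0.92). At day 28 the brighter set averaged 4078.5 ± 823 (SD, n = 4) in controls and 3116 ± 436 (n = 4) in diabetic ventricles, a difference of -0.38 ± 0.18 (adjusted p = 0.41), with overlapping ranges.

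Bckdhb, the beta chain of the same enzyme, read 3829, 3839, 4028 and 4427 in controls and 2847, 2209, 2552 and 2882 in diabetic ventricles at day 42. Every diabetic array was below every control. The difference was -0.63 ± 0.20, with an adjusted p of 0.045, close to the threshold: it was not called in any of the 8 fits that left out 1 array of that day (adjusted p from 0.057 to 0.14). It was not called with the fluidics station as a block either (-0.59, adjusted p = 0.073), nor with median centring (0.097), quantile normalization (0.061), plain eBayes (0.062) or no filter (0.069). At day 3 the diabetic arrays read 2942, 2518, 2509 and 5540.4, with replicate 4 above all controls (3274 to 4625) and the other 3 below them. The day 3 difference was -0.30 ± 0.20 (adjusted p = 0.73) and that at day 28 was -0.32 ± 0.20 (adjusted p = 0.58).

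Ivd, the leucine-specific dehydrogenase, was lower at day 28 and again at day 42. At day 42 its brightest probe set read 11449.5, 10582, 10358 and 10077.5 in controls and 6211, 5587, 6379 and 7347 in diabetic ventricles. The highest diabetic array stayed well under the lowest control. The difference was -0.74 ± 0.12 (adjusted p = 0.00017), and it remained called in 8 of the 8 fits without 1 array. The middle Ivd set, from the same source sequence, read 8370.2, 8139.9, 8951 and 8344 against 4248, 3676, 4073.5 and 5099. Again the groups lay fully apart, with a 1.99-fold lower level, -0.99 ± 0.16 on the log2 scale (adjusted p = 7.2e-05). The remaining Ivd set carries the suffix given to probes shared by several transcripts, and it gave -1.14 ± 0.19 (adjusted p = 0.00016), from 9046 ± 258 to 4116 ± 372 (SD, n = 4 each).

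At day 28 the brightest Ivd set read 8204, 9501, 9515 and 8858 in controls and 5679.7, 6518, 6507 and 5389.5 in diabetic ventricles. There was no overlap, and the difference of -0.58 ± 0.12 passed (adjusted p = 0.0091). The middle set gave -0.78 ± 0.16 (adjusted p = 0.005), from 5801 ± 1030.5 to 3410.4 ± 747 (SD, n = 4 each), while the shared set, at -0.70 ± 0.19, did not pass (adjusted p = 0.058). Both calls of day 28 remained in 8 of the 8 fits without 1 array. A fit of the day 28 arrays alone, with fewer degrees of freedom, gave the same differences with an adjusted p of 0.096 and 0.16, and median centring ended the call of the brightest Ivd set (adjusted p = 0.09). With the fluidics station as a block neither Ivd set passed (-0.54 and -0.69): station 2 held all 4 controls of that day with 1 diabetic array, and station 1 the other 3 diabetic arrays. At day 3 the brightest set read 9306.5, 8602.5, 8357 and 6548 against 6556, 5088, 6309.6 and 7255.5, with overlap, and the difference was -0.38 ± 0.12 (adjusted p = 0.20). The middle set's arrays were fully separated at day 3, at 6147 to 7929 in controls and 4184 to 5851 in diabetic ventricles, but -0.47 ± 0.16 did not pass either (adjusted p = 0.20).

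Auh, which acts later on the leucine route, was called lower at day 42 and at no earlier day. It read 12249, 11516, 11203 and 11204 in controls and 9108, 8954, 6303 and 8867 in diabetic ventricles. All diabetic arrays were below the controls, and replicate 3 was again the lowest. The difference was -0.49 ± 0.14 (adjusted p = 0.017), and without diabetic replicate 3 it was -0.36 and not called (adjusted p = 0.081), nor was it with median centring (adjusted p = 0.10). At days 3 and 28 the difference was -0.07, with 95% intervals of -0.35 to 0.21 and -0.35 to 0.20, and the ranges overlapped (9373 to 11807 in controls and 8410.2 to 13709.6 in diabetic ventricles at day 28).

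Acadsb, the isoleucine-route dehydrogenase, was the dimmest member and the one with the steepest course over the days. At day 42 it read 455, 373, 495 and 234 in controls and 194, 123, 81.5 and 163 in diabetic ventricles. The highest diabetic array lay under the lowest control. The difference was -1.49 ± 0.34, a 2.80-fold lower level (adjusted p = 0.0042), called in 8 of the 8 fits without 1 array. Over the other alternatives it was called in 14 of 14, but its size ran from -1.58 to -1.03. The diabetic signals were low, as the pooled 25th percentile of all signals was 93.6, so the size of the fold is uncertain. At day 3 the signals were 1598, 1517, 1406 and 1236 against 1235, 675, 557 and 1033. The groups met without crossing, the lowest control at 1235.6 and the highest diabetic array at 1235.4, and -0.78 ± 0.34 did not pass (adjusted p = 0.42). At day 28 they overlapped widely (392 to 1338 in controls and 346 to 772 in diabetic ventricles), at -0.45 ± 0.34 (adjusted p = 0.66).

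Pcca, at the propionyl-CoA step, was the member called lower at all 3 days. Its signal at day 3 was 4590.2, 4109, 4509 and 4429 in controls and 2316, 2970.5, 2996 and 3669.7 in diabetic ventricles. At day 28 it was 3856, 5065, 4537 and 4450.1 against 2704, 3428, 3069 and 3036.5. At day 42 it was 4176, 4349, 4086 and 3989 against 2396, 2703, 1864 and 2929.6. In each of the 3 sets of 8 animals every diabetic ventricle read below every control, and the control level stayed between 4149.9 ± 153 and 4477 ± 495 (mean ± SD, n = 4). The differences were -0.58 ± 0.14 (adjusted p = 0.044), -0.55 ± 0.14 (adjusted p = 0.037) and -0.77 ± 0.14 (adjusted p = 0.00044), or 1.49-, 1.46- and 1.70-fold. The 2 early calls were close to the threshold. That of day 3 remained in 1 of the 8 fits without 1 array (adjusted p from 0.014 to 0.12), that of day 28 in 2 of 8, and that of day 42 in 8 of 8. Of the other alternatives, 9 of 16 kept the day 3 call, 8 of 16 that of day 28, and 15 of 15 that of day 42, and the difference was below 0 in all of these. With the fluidics station as a block, days 3 and 28 gave -0.53 and -0.59 and did not pass, and a fit of the day 28 arrays alone ended the call of that day (adjusted p = 0.18). Station 2 held all 4 diabetic arrays of day 3 with 1 control, and station 1 the other 3 controls.

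Whether the diabetic difference itself grew between days was tested as an interaction. From day 3 to day 42 it moved downward in 10 of the 10 members, by a median of -0.57 against 0.01 over all probe sets. None of the 10 passed after adjustment, and 4 had an unadjusted p under 0.05 in limma, as had 496 of all probe sets. The background of calls in this test was 1.87%. The brighter Bckdha set came closest, at -0.92 ± 0.26 (adjusted p = 0.076), followed by the shared Ivd set at -0.75 ± 0.27 (adjusted p = 0.24). For Pcca the change was -0.19, with an interval of -0.60 to 0.22, and for Bcat2 -0.65, with an interval of -1.99 to 0.70. Between days 3 and 28 no member was called (smallest adjusted p = 1.0; 1 member and 243 probe sets under an unadjusted 0.05), against 0.0% of all probe sets. Between days 28 and 42 none was called either (smallest adjusted p = 0.55; 2 members and 429 probe sets under 0.05), against 0.973%. The sequence of calls over the 3 days is a sequence of thresholds passed, and a difference between days in the size of the effect was not shown for any member.

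**Figure D3:**
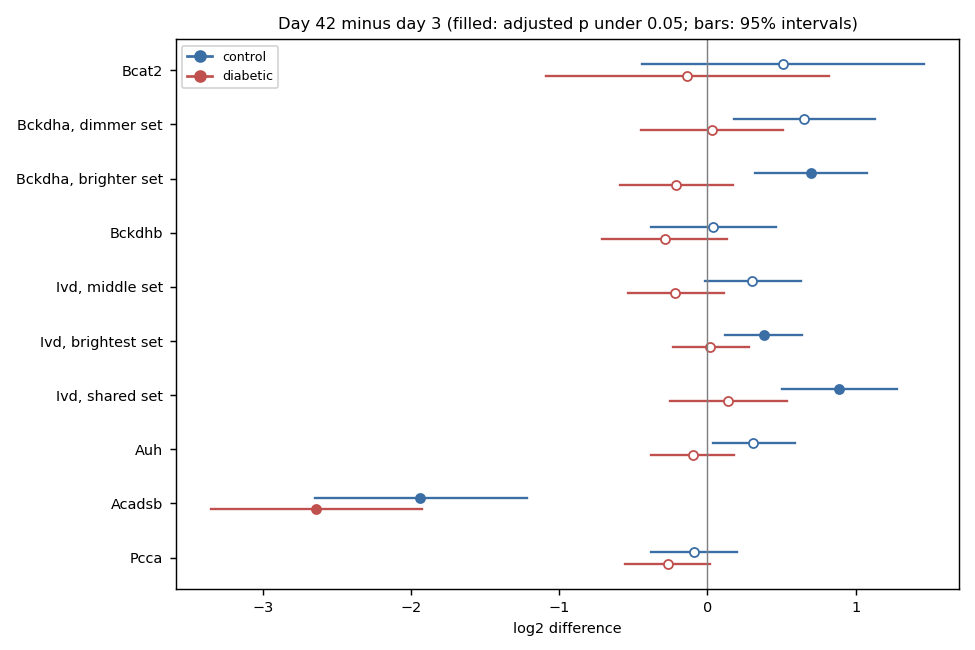
Day 42 minus day 3 on the log2 scale (x axis) within control (blue) and diabetic (red) rats for the 10 probe sets (y axis), with 95% confidence intervals and filled points for an adjusted p under 0.05. Acadsb lies near -1.94 in controls and -2.64 in diabetic rats, and the control point lies to the right of the diabetic point in all 10 pairs.

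Within the controls, day 42 levels were higher than at day 3 in 3 probe sets and lower in 1, and within the diabetic rats 1 was lower. In controls the brighter Bckdha set was higher by 0.70 ± 0.18 (adjusted p = 0.011), the brightest Ivd set by 0.38 ± 0.12 (adjusted p = 0.036) and the shared Ivd set by 0.89 ± 0.19 (adjusted p = 0.0024). The same 3 sets gave -0.21, 0.02 and 0.14 in the diabetic rats, none past the threshold. Over all probe sets 7.0% were called higher and 10.9% lower in the control course. Acadsb was lower at day 42 in both, at -1.94 ± 0.34 in controls (adjusted p = 0.00039) and -2.64 ± 0.34 in diabetic rats (adjusted p = 1.2e-05), where 11.1% of probe sets were called lower. Its control mean was 1439 ± 157, 801 ± 402 and 389 ± 115 at the 3 days (SD, n = 4), and its diabetic mean was 875 ± 314, 560.2 ± 196 and 140.4 ± 48.9. From day 3 to day 28 no member was called in controls (smallest adjusted p = 0.086; 2 members under an unadjusted 0.05; background 7.44%). In diabetic rats the middle and shared Ivd sets were lower, at -0.56 ± 0.16 (adjusted p = 0.037) and -0.71 ± 0.19 (adjusted p = 0.033), against 4.18% of all probe sets called lower, while the brightest Ivd set gave -0.06 (adjusted p = 0.84). Every day was scanned on scan days of its own, and the arrays of day 42 on 1 scan day by another operator, so day, growth and scan cannot be told apart in these courses. The hexokinase 3' to 5' ratio, a control for RNA length, was 2.60 to 5.07 at day 42 and 1.43 to 2.77 at the earlier days, and its part in the courses was not tested.

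Correlations between members differed from pair to pair. Over the 24 arrays the main probe sets of the 7 genes, the brightest of each, gave 21 pairwise Pearson correlations of log2 signal from 0.02 to 0.85, with a median of 0.56, and these points share groups, arrays and scaling. After the group means were taken off, the range was 0.01 to 0.79 and the median 0.29. Bcat2 and Pcca were the closest pair in both, at 0.85 and 0.79, while Bcat2 and Ivd were at 0.65 and 0.01. Bcat2 and Pcca were both lowest of their group in diabetic replicate 1 of day 3 and in diabetic replicate 3 of day 42. Their correlation without those arrays was not computed. The 2 Bckdha sets correlated at 0.93, and at 0.94 after group means were removed. Among genes outside the pathway, those most like Pcca over the 24 arrays were Higd1a (r = 0.919, and 0.538 after group means), Pxmp2 (0.871 and 0.435) and Ppa2 (0.85 and 0.804). Those most like Ivd were Slc2a4, the insulin-responsive glucose transporter (0.869 and 0.151), Pxmp2 (0.843 and 0.246) and Gpt, alanine aminotransferase (0.828 and 0.299). These are descriptions of likeness across arrays, without a test.

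Of 28 other genes of the branched-chain route, its regulators and its transporters, 11 were on the array and 8 passed the filter. None of the 8 was called at day 3 or day 28, and at day 42 2 were lower and 1 was higher, with list medians of -0.05, -0.07 and -0.14. Echs1, the short-chain enoyl-CoA hydratase used by isoleucine, valine and fatty acid breakdown, ran from 8869 to 13132 in controls and from 3685 to 6098 in diabetic ventricles at day 42, without overlap. The difference was -1.17 ± 0.25 (adjusted p = 0.0017). Hibadh, the 3-hydroxyisobutyrate dehydrogenase of the valine route, ran from 14811 to 16857 against 7911 to 11467 with a difference of -0.62 ± 0.18 (adjusted p = 0.02), a call lost without diabetic replicate 3 or control replicate 2. Slc3a2, the heavy chain of the amino acid exchanger that imports leucine, was the one that rose, from 1610.1 to 2775 to 4096 to 6133, by 1.26 ± 0.29 (adjusted p = 0.0041). A second Slc3a2 set gave 1.20 (adjusted p = 0.01). The remaining values are of genes added after they were seen. Pccb, the partner subunit of Pcca, was dim, at 156 to 448 intensity units in the diabetic and 293 to 399 in the control ventricles of day 42, and gave -0.17 ± 0.27 (adjusted p = 0.80). Slc7a5, the light chain of the exchanger, gave 0.22 ± 0.20 (adjusted p = 0.61). Acat1, the thiolase shared with ketone body metabolism, gave -0.11 ± 0.17 (adjusted p = 0.79), and Hsd17b10 of the isoleucine route gave 0.01 ± 0.17. Aldh6a1, of the valine route, gave -0.46 ± 0.24 (adjusted p = 0.27). Bcat1, Bckdk, the kinase that switches the ketoacid dehydrogenase off, and Abat fell below the filter and were not tested; Bckdk ran from 34.7 to 399 over the 24 arrays.

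**Figure D4:**
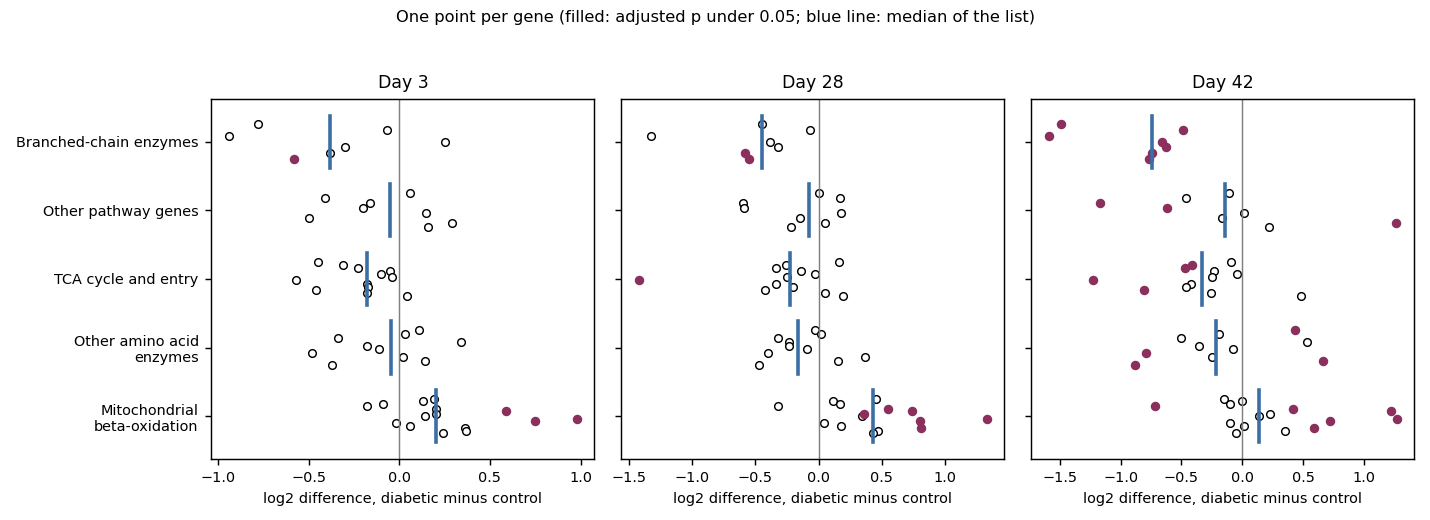
Diabetic minus control difference on the log2 scale (x axis), 1 point per gene, for the 7 branched-chain enzymes and 4 other lists (y axis) at days 3, 28 and 42. Filled points passed an adjusted p of 0.05 and blue lines are list medians. At day 42 the median was -0.74 for the 7 enzymes, -0.33 for the TCA cycle, and 0.14 for beta-oxidation. Enzymes and lists were chosen with earlier results of these data known.

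Beside the 7 genes, whose gene-level medians were -0.38, -0.45 and -0.74, the medians of other metabolic lists lay nearer to 0 or above it at the same days. Of 15 tested genes of mitochondrial beta-oxidation, 3, 6 and 5 were higher and 0, 0 and 1 lower at days 3, 28 and 42. Their medians were 0.20, 0.43 and 0.14. Of all 5244 probe sets, 49, 110 and 599 were called in either direction at these days, 16, 42 and 295 of them lower. The carnitine transferase gene Cpt1a gave 1.22 ± 0.14 at day 42 (adjusted p = 1.4e-06), and the auxiliary enzymes Decr1 and Eci1 gave 1.27 and 0.72. Of 12 genes of the TCA cycle and its entry, 0, 1 and 4 were lower and none was higher, with medians of -0.18, -0.22 and -0.33. Pdhx, the E3-binding protein of pyruvate dehydrogenase, gave -0.81 ± 0.15 (adjusted p = 0.00036), and Pc and Dlst gave -1.23 and -0.47. Of 10 other amino acid enzymes, none was called at days 3 and 28, and at day 42 Gpt (-0.79) and Odc1 (-0.88) were lower while Oat (0.66) and 1 further gene were higher. No test compared these lists with the branched-chain enzymes. The 7 genes and the lists were chosen with earlier results of these data known, so the lower median of the 7 genes is not independent of that choice. The 8 other pathway genes tested had a median of -0.14 at day 42.

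Some marker genes of other cells moved at day 42 as well. Of the 9 cardiomyocyte markers 8 were tested, and none was called at any day (smallest adjusted p at day 42 = 0.057), with a median of -0.12 at day 42. Their summed signal was 481700 to 649700 in controls and 421100 to 573500 in diabetic ventricles. Of 5 fibroblast markers 4 were tested and 4 fell at day 42, with a summed signal of 78070 to 86150 in controls and 35110 to 46720 in diabetic ventricles, and none was called at days 3 and 28. Of 6 adipocyte markers 4 were tested, with 3 higher at day 42, 1 at day 3 and none at day 28. Of 5 endothelial markers 3 were tested, with 1 higher at day 42, and none of the smooth muscle, macrophage or erythroid markers tested was called. Of all 5244 probe sets, 49, 110 and 599 were called in either direction at days 3, 28 and 42. Of these, 16, 42 and 295 were lower. The 3' to 5' ratio of Gapdh was 1.14 to 1.23 in control and 1.09 to 1.14 in diabetic ventricles of day 42, and that of hexokinase had a median of 3.78 and 3.40. The part of these cells and of RNA quality in the day 42 differences was not tested.

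Diabetic replicate 3 of day 42 was the lowest of its group in 6 of the 10 member probe sets, at a median of -0.39 from the group mean on the log2 scale, and its median correlation with its group was 0.949 against 0.969 to 0.971 for the other 3. Without it 5 of the 10 members were called at day 42, the 3 Ivd sets, Acadsb and Pcca. Without it and diabetic replicate 1 of day 3 together, 0, 4 and 6 members were called at days 3, 28 and 42, Bcat2 being the added one at day 28. On fluidics station 1, with 3 controls and 2 diabetic arrays of day 42, the difference was below 0 in 10 of the 10 members, with a median of -0.75. On station 2, with 1 control and 2 diabetic arrays, it was below 0 in 10 of 10 with a median of -0.74. Within batches of day 28 it was below 0 in 8 to 10 of the 10, with medians from -0.53 to -0.43. Within batches of day 3 it was below 0 in 7 to 9, with medians from -0.40 to -0.21. At both days some batches held only 1 control and 1 diabetic array. Batches by scan day, station and lot share arrays, so they are not separate checks.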

How the data were processed

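Total RNA from 24 rat ventricles was hybridised to Affymetrix RG-U34A arrays, and the authors deposited 1 MAS5 signal per probe set and array, a linear intensity, per the submitters' processing notes. No MAS5 version is recorded in the sources used. Each array's trimmed mean was 1499.9 to 1500, so the deposited intensities were already scaled, and median signals ran from 322.7 to 444.7. Of 8799 probe sets, 59 controls were left out. Of the other 8740, 7006 had 1 symbol in the platform annotation, 308 had several and 1426 had none.

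Intensities were floored at their pooled 10th percentile, 30.5, and put on the log2 scale. Probe sets at or over the 40th percentile of mean log2 were kept (5244). Group means were fitted over 24 arrays with limma 3.58.1 in R 4.3.3 (eBayes with trend and robust, 18 residual degrees of freedom), with two-sided tests and Benjamini-Hochberg adjustment over the 5244. Every adjusted p is from limma. The number of arrays limits the precision: the median SE at day 42 was 0.214. The fit was run on simulated data with independent normal noise and changes placed only in the diabetic group of day 42. That simulation held no outlying arrays, so it does not bear on calls that depend on single arrays.

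Scan day, fluidics station and chip lot came from the deposited run-setting files. Alternatives covered the floor, pseudocount, filter, normalization, eBayes options, groups fitted, blocks and single arrays left out. A random scan day block and a fit without 2 arrays were added after the data were seen. Members, lists and the motifs were chosen with earlier results of these data known. A gene's main probe set is the one with the highest mean log2. Every member probe set is described. Other pathway genes are named where they passed or had 1 of the 3 smallest p at day 42, and other lists by up to 3 genes with the smallest p. For likeness, the 3 genes with the highest correlation were named for each member called at 2 or more days.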

Additional observations from a re-analysis of the deposited data

Results flagged for a closer look

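The 10 probe sets gave 60 groups of 4 arrays, 6 for each, and their linear intensities were checked for outlying arrays. In 3 of the groups 1 array lay so far from the other 3 that its gap to the nearest exceeded Dixon's 95% critical value. Chance marks about 1 group in 20. The log2 scale of the fits was not checked in this way and can mark other arrays. The dimmer Bckdha set read 1310.7 intensity units in diabetic replicate 3 of day 28, below the other 3 at 2061 to 2200.3. Bckdhb read 5540.4 in diabetic replicate 4 of day 3, above the other 3 at 2509 to 2942. Auh read 6302.9 in diabetic replicate 3 of day 42, below the other 3 at 8867 to 9108. Bcat2 in that same array, at 333.7 against 2001.8 to 2595.9 in the other 3, was not marked on the linear scale.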

How the results depend on the processing

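The count of members called at day 3, 1 of 10, was 0 with no filter, with median centring of each array, with plain eBayes, with a fit of only the groups compared, with scan day or fluidics station as a block, and without the 2 arrays farthest from their group means. At day 28, 3 of 10 became 1 with median centring, 1 in a fit of only the groups compared, which lost the 3 reported calls and called Bcat2, and 0 with the station block. At day 42, 9 of 10 became 5 with median centring. In the control course to day 42, 4 became 8 in a fit of only the groups compared. In the diabetic course to day 28, 2 became 0 with quantile normalization, median centring, 1 probe set per gene, only the groups compared or the station block, and 1 with plain eBayes, scan day as a random block or without the 2 arrays. In the diabetic course to day 42, 1 became 0 with the filter at the 60th percentile, which removed Acadsb. Leaving out 1 array at a time gave 0 to 1, 2 to 4 and 5 to 8 calls at days 3, 28 and 42, 0 to 0, 0 to 0 and 0 to 1 for the differences between days 3 and 28, 28 and 42, and 3 and 42, 0 to 1 and 3 to 5 in the control courses to days 28 and 42, and 0 to 2 and 1 to 2 in the diabetic ones. The other counts were within 1.5 times the reported ones. Over these refits, differences that were not called changed sign in 3 genes. Auh was 0.05 at day 3 with the station block, and 0.01 at day 28 with the scan day block or without diabetic replicate 1 (range without 1 array -0.22 to 0.01). Echs1 was 0.05 at day 3 with the station block. Slc3a2 was -0.02 at day 3 without diabetic replicate 3 (range -0.02 to 0.55), and at day 28 it was -0.28 with the station block and -0.08, -0.15 and -0.01 without control replicate 4, diabetic replicate 2 and diabetic replicate 4 (range -0.15 to 0.19). Within single batches, differences that were not called changed sign as well. At day 28 Bckdhb was 0.16 and Auh 0.22 in chip lot 1, and Auh was 0.01 on scan day 2. At day 3 the shared Ivd set was 0.05 on scan day 5 and the dimmer Bckdha set -0.10 in chip lot 4. The cause of these changes was not tested, other than the Acadsb filter. No scaling moved the median of all probe sets by more than 0.1. Same-numbered control and diabetic arrays of a day did not pair: of 12 pairs, correlations of deviations ran from -0.189 to 0.397 and 2 were over 0.1, and with the replicate block 1, 3 and 9 members were called at days 3, 28 and 42.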
